A study of Mus musculus with 28 samples.

Results

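Carbonic anhydrase genes were followed by symbol through the deposited count table of a cranial neural crest experiment: Car2, Car3, Car4, Car8, Car9, Car11, Car12, Car13 and Car14. All 9 symbols matched 1 identifier each among 54429 identifiers in the table, and each had at least 1 read count in at least 1 library. Car9, Car11, Car12 and Car13 carried enough reads to be tested in most comparisons, Car2 and Car14 in a few, and Car3, Car4 and Car8 in none.

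Carbonic anhydrases interconvert carbon dioxide and water with bicarbonate and a proton, and most are zinc enzymes. Cytosolic forms buffer the cell interior, whereas membrane-anchored forms with an outward-facing catalytic domain act on the fluid around the cell. Car9, and in many cells Car12, are textbook targets of the hypoxia-inducible factors, which accumulate when oxygen falls, and Car2 is known in bone for the acid secretion of osteoclasts.

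The cells were O9-1, an established mouse line of cranial neural crest origin, a tissue that forms much of the skeleton and connective tissue of the face. As a single line, it gives no measure of variation between lines. Sequencing gave 28 RNA libraries, with 4 libraries in each group kept at 21% O2 and 3 libraries in each group kept at 0.5% O2. Proliferating cells were kept in medium conditioned by STO feeder cells, with 15% fetal calf serum, 0.1 mM non-essential amino acids, 55 µM beta-mercaptoethanol, 25 ng/ml bFGF and 5 ng/ml LIF. Osteoblast cultures had 10 days in alpha-MEM with 10% serum, 10 mM beta-glycerophosphate, 0.1 µM dexamethasone and 100 ng/ml BMP-2. Chondrocyte cultures first had 3 days of that osteoblast medium. They then had 7 days as micromasses on matrigel in alpha-MEM with 5% serum, 1x insulin-transferrin-selenium, 0.1 µM dexamethasone, 10 ng/ml TGF-beta3 and 50 ng/ml BMP-2. Smooth muscle cultures had 3 days in DMEM with 10% serum and no added factor. Every medium also held penicillin and streptomycin, and lineage is therefore tied to medium, time and culture form in every comparison between cultures. The labels do not say whether libraries of a group came from separate cultures, so every p-value measures only the spread between these libraries.

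Libraries held 19869271 to 64693346 counts. The 3 smooth muscle libraries at 0.5% O2 stood apart. Mitochondrial ribosomal RNA took 11.6 to 13.3% of their counts against at most 0.0889% in the other 25, and their scaling factors by the trimmed mean of M-values (TMM) were 0.505 to 0.533 against 0.901 to 1.29. All 6 of their smooth muscle markers had counts, but these summed to 94.8 to 119 CPM (counts per 1000000 of the TMM-scaled library total), against 3530 to 3990 CPM in smooth muscle cultures at 21% O2 and 94.1 to 103 CPM in proliferating cells at 21% O2. The same markers summed to 3560 to 5100 CPM in osteoblast and 2071 to 2522 CPM in chondrocyte cultures at 21% O2. At 0.5% O2 they summed to 2159 to 2432 CPM in osteoblast, 1887 to 2260 CPM in chondrocyte and 191 to 195 CPM in proliferating cultures. At 21% O2 they therefore did not set smooth muscle cultures apart from osteoblast cultures. Chondrocyte markers summed to 3118 to 9318 CPM in chondrocyte cultures at 21% O2 and to 894 to 1357 CPM at 0.5% O2. The osteoblast markers summed to 38540 to 51720 CPM in chondrocyte cultures over both oxygen levels, most of it Col1a1, and to 6710 to 15600 CPM in osteoblast cultures. Gene by gene, 6 of 7 were higher in chondrocyte than in osteoblast cultures at 21% O2, where 28.6% of all tested genes were higher and 31.1% lower. At 0.5% O2, 3 were higher and 2, Runx2 and Spp1, lower of 6, against 28.6% and 29.0% of all tested genes. The 6 neural crest markers summed to 112 to 564 CPM, with 3 of them at a mean of at least 1 CPM in every group, while Sox10 was at 0 in every group except smooth muscle at 21% O2. Apart from the alternative fit of all 28 libraries, fits of comparisons outside the smooth muscle cultures did not use the 3 libraries that stood apart, and the part of these features in the smooth muscle results at 0.5% O2 was not tested.

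Promoter sequence is shown for Car9 and Car12, the 2 membrane-bound enzymes called higher at low oxygen in at least 3 kinds of culture. Windows from 250 bases before to 50 bases after the annotated start, from RefSeq on GRCm38.p6 (the mm10 build of the deposited data), matched 5 of the 9 genes: Car4, Car9, Car11, Car12 and Car14. The cores ACGTG and GCGTG, known as the letters that hypoxia-inducible factors bind, were searched on both strands, with overlapping matches counted. In the lines that follow, the Car9 window is chr4:43506776-43507075 and the Car12 window chr9:66713436-66713735, both on the plus strand and written 5′ to 3′, and capitals mark a core on either strand.
Car9: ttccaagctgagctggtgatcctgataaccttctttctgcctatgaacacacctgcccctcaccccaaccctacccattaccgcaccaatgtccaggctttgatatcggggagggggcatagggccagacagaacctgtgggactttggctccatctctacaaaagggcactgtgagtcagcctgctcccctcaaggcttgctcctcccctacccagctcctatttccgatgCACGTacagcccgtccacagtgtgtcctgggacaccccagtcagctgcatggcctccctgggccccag
Car12: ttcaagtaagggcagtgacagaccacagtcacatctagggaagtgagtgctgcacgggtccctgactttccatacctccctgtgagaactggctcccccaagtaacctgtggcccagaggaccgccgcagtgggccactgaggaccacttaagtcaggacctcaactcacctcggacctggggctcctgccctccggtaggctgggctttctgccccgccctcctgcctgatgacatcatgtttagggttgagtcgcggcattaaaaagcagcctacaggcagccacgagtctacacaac
The Car9 window held 1 ACGTG core, read on the minus strand and therefore printed as its reverse complement, 18 bases before the RefSeq start. GENCODE places the start of Car9 60 bases further upstream, so the core lies inside its gene model. The Car12 window held neither core, which says only that these letters are not in this stretch. Each of the 2 Car11 windows held 1 GCGTG core, and the windows of Car14 and Car4 held 1 ACGTG core each. Among 32851 mouse windows of 300 bases, 19.6% held ACGTG, 32.4% held GCGTG and 43.8% held either, so a match describes a promoter and does not make a site.

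Low oxygen was accompanied by more Car9 RNA in all 4 kinds of culture, by more Car12, Car13 and Car11 RNA in 3 of the 4 (Car13 in smooth muscle cultures turns lower when libraries are scaled by size alone), and by less Car2 RNA in osteoblast cultures. A gene was called when its adjusted p was under 0.05 in edgeR's quasi-likelihood test of the raw counts, with Benjamini-Hochberg adjustment over all genes tested in that comparison. In proliferating cells 4 of 4 tested members were called higher at 0.5% O2, where 33.1% of all tested genes were called higher and 32.3% lower. In chondrocyte cultures 1 of 4 was called, higher, against 10.4% of all genes higher and 11.8% lower. In osteoblast cultures 4 of 6 were called higher and 1 lower, against 27.0% higher and 27.3% lower over all genes. In smooth muscle cultures 4 of 4 were called higher, against 35.4% higher and 40.2% lower. With library size alone 3 were higher and 1, Car13, lower, where 13.4% of all genes were higher and 72.6% lower. The median log2 fold change of the tested members was 2.00, 0.12, 1.16 and 4.07 in that order of cultures, and the median over all tested genes was 0.01, -0.01, -0.03 and -0.12. Since so many genes moved in these comparisons, the share of members called is read against those percentages and is not by itself a property of carbonic anhydrases. Some members passed the filter only through the group at 0.5% O2, such as Car9 in proliferating and Car12 in osteoblast cultures, which favours a higher call. The medians above include such genes. With at least 10 counts in every library, 2 of 2 tested members were called higher in proliferating cells (34.6% of all genes) and 1 of 4 in chondrocyte cultures (11%). That filter left 3 of 3 called higher in osteoblast (27.7%) and 3 of 3 in smooth muscle cultures (39.2%).

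**Figure D1:**
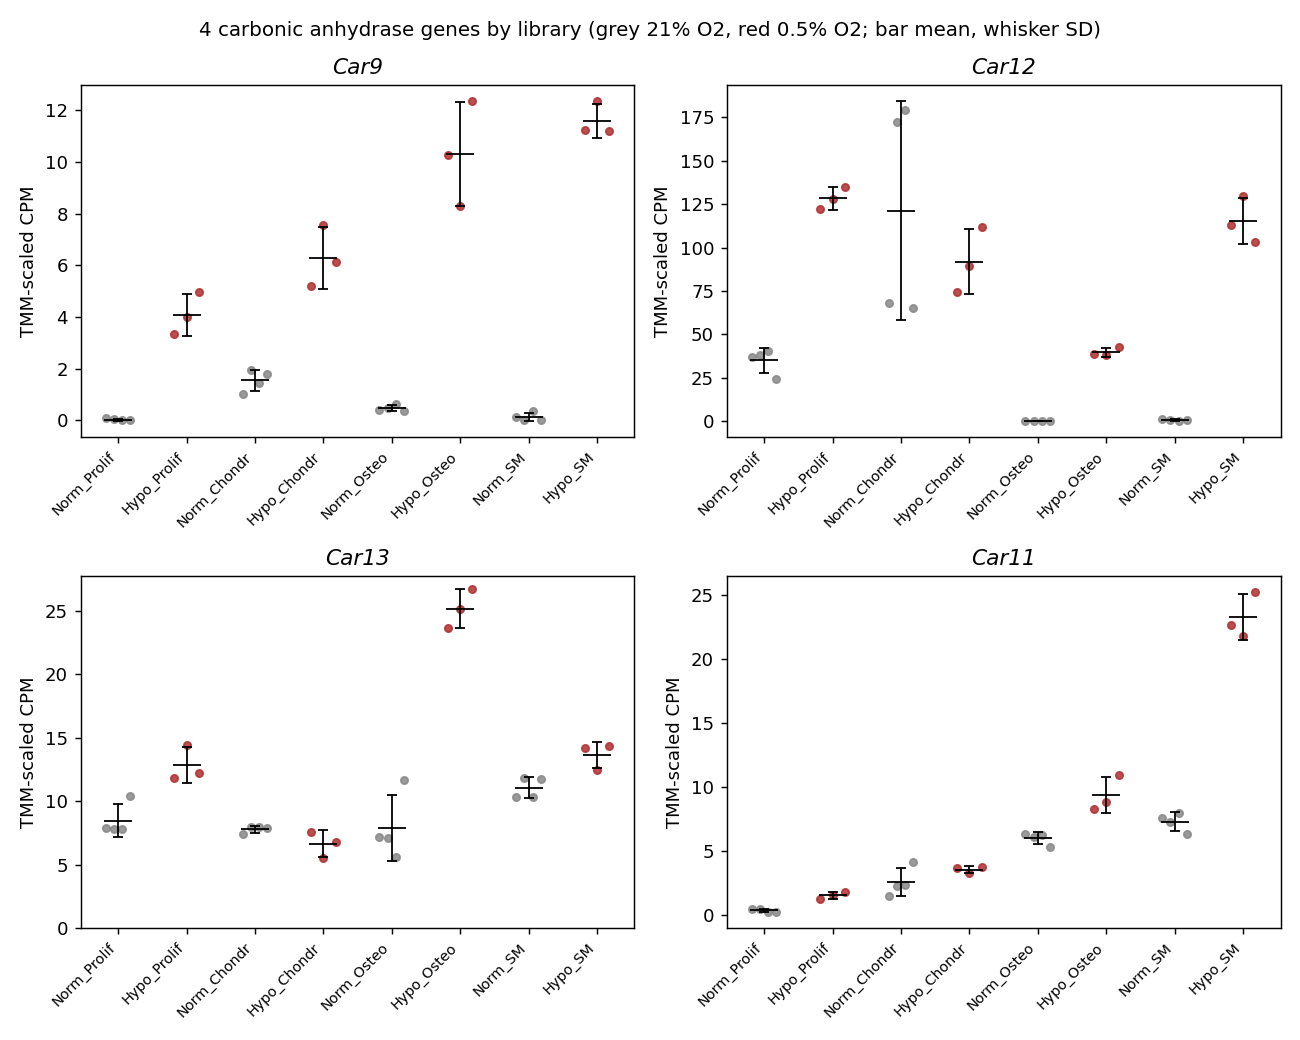
TMM-scaled CPM of Car9, Car12, Car13 and Car11 in each of the 28 libraries (points), with the group mean (bar) and SD (whisker), on linear axes that differ between panels. Car9 is higher in all libraries at 0.5% O2 (red) than in all libraries at 21% O2 (grey) over the whole set, whereas Car12 falls to 0.879 CPM in smooth muscle and 0.188 CPM in osteoblast cultures at 21% O2.

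Among the cytosolic enzymes, Car13 was the only member of this class with reads in every library, and its largest oxygen response was 1.67 on the log2 scale, in osteoblast cultures. Car13, ENSMUSG00000027555 on chromosome 3 (14641727 to 14663002, plus strand, in GENCODE vM21 on GRCm38, the source of every gene position here), encodes a soluble carbonic anhydrase. In proliferating cells Car13 was at 7.88, 7.82, 7.79 and 10.4 CPM at 21% O2 and at 11.9, 14.4 and 12.2 CPM at 0.5% O2. The 2 sets did not overlap, although replicate 4 at 21% O2 stood above its other libraries. The log2 fold change was 0.66 (SE 0.130, adjusted p = 0.000494, edgeR). In osteoblast cultures Car13 was at 7.20, 7.10, 5.56 and 11.7 CPM at 21% O2 and at 23.7, 25.2 and 26.7 CPM at 0.5% O2. Every library at low oxygen thus held more than 2 times the highest value at 21% O2, and the log2 fold change was 1.67 (SE 0.220, adjusted p = 0.000241, edgeR). In chondrocyte cultures the ranges were 7.38 to 7.96 CPM and 5.55 to 7.60 CPM, they overlapped, and the log2 fold change of -0.23 (SE 0.143, adjusted p = 0.287, edgeR) was not called. In smooth muscle cultures the ranges were 10.3 to 11.8 CPM and 12.5 to 14.4 CPM, with a log2 fold change of 0.37 (SE 0.145, adjusted p = 0.0323, edgeR). That smooth muscle difference depends on scaling and on single libraries: with library size alone it was -0.9995 (adjusted p = 1.96e-05, edgeR), leaving out each of the 7 libraries in turn ended the call 5 times, and it ended with the replicate number as a block (adjusted p = 0.0888), with no filter (0.232) and in the fit of all 28 libraries (0.103).

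Between cultures at 21% O2 the differences in Car13 were small. The log2 fold change against proliferating cells was -0.05 (SE 0.126) in chondrocyte and -0.05 (SE 0.223) in osteoblast cultures, neither called. The chondrocyte value was -0.39 and called lower with library size alone (adjusted p = 0.0135, edgeR), and without osteoblast replicate 4 the osteoblast value was -0.34 and called lower (adjusted p = 0.0463, edgeR). It was 0.44 (SE 0.120, adjusted p = 0.00325, edgeR) in smooth muscle cultures, whose lowest library, at 10.3 CPM, lay just under replicate 4 of the proliferating cells. At 0.5% O2 Car13 was higher in osteoblast cultures than in proliferating cells (0.97, SE 0.113) and lower in chondrocyte cultures (-0.95, SE 0.147), with adjusted p of 1.69e-06 and 6.56e-05 in edgeR. In order of TMM-scaled group means Car13 ran from osteoblast cultures at 0.5% O2 (25.2 CPM ± 1.54 SD, n = 3) to chondrocyte cultures at 0.5% O2 (6.65 ± 1.03, n = 3). Of the 7 neighbouring pairs in that order, only 2 did not overlap: osteoblast above smooth muscle at 0.5% O2, and proliferating at 0.5% above smooth muscle at 21% O2. Scaled by library size alone, smooth muscle cultures at 0.5% O2 left the second place, at 6.29 to 7.55 CPM, below all libraries of proliferating and smooth muscle cultures at 21% O2.

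Car2, the fast cytosolic enzyme, was a low gene whose reads lay mostly in osteoblast cultures at 21% O2. Car2 (ENSMUSG00000027562, chromosome 3, 14886273 to 14900770, plus strand) had 35, 39, 53 and 21 counts there, or 1.22, 1.54, 1.80 and 0.673 CPM. The osteoblast libraries at 0.5% O2 had 4, 0 and 7 counts, so the 2 groups did not overlap, and the log2 fold change was -3.26 (SE 0.702, adjusted p = 0.00374, edgeR). It ran from -4.06 without replicate 3 to -2.66 without replicate 2 at 0.5% O2, called each time. Chondrocyte libraries at 21% O2 had 0, 11, 3 and 0 counts, and smooth muscle libraries had 6, 4, 0 and 0. Proliferating libraries had at most 2 counts at either oxygen level, and all 6 chondrocyte and smooth muscle libraries at 0.5% O2 had 0, where 3 counts over the group would be 0.0345 and 0.0878 CPM. Against proliferating cells at 21% O2 the osteoblast level was higher by 5.96 on the log2 scale (SE 0.683, adjusted p = 2.35e-05, edgeR), from a base of 3 counts over 4 libraries, and leaving out 1 library at a time gave 5.24 to 6.97. At 21% O2 Car2 was also lower in chondrocyte than in osteoblast cultures, with a log2 fold change of -3.33 (SE 0.824, adjusted p = 0.00637, edgeR). Leaving out 1 library at a time gave values from -5.08, without chondrocyte replicate 2 (the library with 11 counts), to -2.84, called each time. The other 7 groups overlapped one another from neighbour to neighbour in order of their means. Of 8 osteoclast markers, 3 had a count in osteoblast cultures at 21% O2, with a sum of 0.276 to 0.594 CPM, and Acp5, Calcr, Dcstamp, Ocstamp and Atp6v0d2 were at 0. In these bulk libraries fewer cells of a type and less RNA per cell cannot be told apart.

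Car3, a cytosolic form known from muscle, liver and fat, had 13 counts in 4 of 28 libraries and passed the filter of the main fits in no comparison. Its counts were 7 and 1 in chondrocyte replicates 1 and 2 at 0.5% O2, 3 in osteoblast replicate 3 at 0.5% O2, and 2 in chondrocyte replicate 1 at 21% O2. Adipocyte markers summed to 1.80 to 2.30 CPM in chondrocyte and 20.01 to 23.1 CPM in osteoblast cultures at 0.5% O2, and skeletal muscle markers to 3.19 to 4.45 and 2.32 to 2.41 CPM. In each of these sums only 1 gene had a mean of at least 1 CPM. Of 7 adipocyte markers Adipoq, Cfd, Cidec and Lep were at 0 in both cultures. Of 8 skeletal muscle markers Myod1, Myog, Myh3 and Actn2 were at 0 in both. The part of either cell type in the Car3 counts was not tested. Car3 lies on chromosome 3 from 14863512 to 14872523 (plus strand), between Car1 and Car2. Car13, Car1, Car3 and Car2 form a cluster of 4 genes within 259044 bases, and their RNA levels did not follow one another: Car13 had reads in 28 libraries, Car2 in 15, Car3 in 4 and Car1 in 0.

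Car9 was the member called higher at low oxygen in all 4 kinds of culture. Car9 (ENSMUSG00000028463, chromosome 4, 43506966 to 43513729, plus strand) encodes a membrane enzyme with an outward-facing catalytic domain. In proliferating cells Car9 had 3, 4, 0 and 0 counts at 21% O2 and 103, 111 and 145 counts at 0.5% O2, or 3.35, 3.99 and 4.96 CPM. The log2 fold change was 6.61 (SE 0.447, adjusted p = 1.95e-08, edgeR), a 97.4-fold difference that rests on 7 counts in the lower group. Smooth muscle libraries had 4, 1, 13 and 1 Car9 counts at 21% O2 and 150, 124 and 121 counts at 0.5% O2, which are 11.2, 12.4 and 11.2 CPM at low oxygen. The log2 fold change was 6.41 (SE 0.478, adjusted p = 1.07e-08, edgeR), and 5.05 when libraries were scaled by size alone. Without replicate 3 at 21% O2, the library with 13 counts, it was 7.57. In both of these cultures the gene was near the limit of detection at 21% O2 and plainly present at 0.5% O2.

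Osteoblast and chondrocyte cultures already held some Car9 RNA at 21% O2. In osteoblast cultures Car9 was at 0.419, 0.473, 0.644 and 0.352 CPM at 21% O2 and at 10.3, 8.31 and 12.4 CPM at 0.5% O2, a log2 fold change of 4.44 (SE 0.242, adjusted p = 1.21e-06, edgeR). In chondrocyte cultures Car9 was at 1.02, 1.94, 1.46 and 1.78 CPM at 21% O2 and at 5.19, 7.56 and 6.14 CPM at 0.5% O2, a log2 fold change of 2.02 (SE 0.239, adjusted p = 0.000145, edgeR). The groups did not overlap in any of the 4 cultures. The size of the Car9 response differed between cultures when the difference itself was tested. It was smaller in chondrocyte cultures than in proliferating cells by -4.56 on the log2 scale (SE 0.552, adjusted p = 3.25e-06, edgeR) and smaller in osteoblast cultures by -2.11 (SE 0.573, adjusted p = 0.00547, edgeR). The smooth muscle response minus the proliferating response was -0.12 (SE 0.525, adjusted p = 0.852, edgeR), an SE that leaves room for a difference in either direction, and -1.47 with library size alone (adjusted p = 0.13).

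At 21% O2 Car9 was higher than in proliferating cells by 5.22 on the log2 scale in chondrocyte cultures (SE 0.546, adjusted p = 2.61e-06, edgeR) and by 3.50 in osteoblast cultures (SE 0.601, adjusted p = 0.000399, edgeR). It was not tested in smooth muscle cultures, where its counts were too low. At 0.5% O2 the differences from proliferating cells were 1.33 in osteoblast (SE 0.186, adjusted p = 1.16e-05) and 1.62 in smooth muscle cultures (SE 0.211, adjusted p = 3.26e-05) in edgeR, the last 0.34 and not called with library size alone (adjusted p = 0.154). The chondrocyte difference at 0.5% O2, 0.61 (SE 0.201, adjusted p = 0.0157, edgeR), lost its call without chondrocyte replicate 2, proliferating replicate 1 or proliferating replicate 2 (adjusted p = 0.0708, 0.0779 and 0.0503). It was also lost with library size alone (0.28, adjusted p = 0.227) and in the fit of all 28 libraries (0.62, adjusted p = 0.102). Chondrocyte cultures thus ranked above osteoblast cultures at 21% O2 (1.68, SE 0.312, adjusted p = 0.00116, edgeR) and below them at 0.5% O2 (-0.71, SE 0.188, adjusted p = 0.00571, edgeR), the latter not called in the fit of all 28 libraries (-0.71, adjusted p = 0.0597). In order of TMM-scaled means the 4 groups at 0.5% O2 came first, from smooth muscle (11.6 CPM ± 0.658 SD, n = 3) to proliferating (4.10 ± 0.813, n = 3), then chondrocyte (1.55 ± 0.407, n = 4), osteoblast (0.472 ± 0.125, n = 4), smooth muscle (0.139 ± 0.165, n = 4) and proliferating (0.0337 ± 0.0404, n = 4) at 21% O2. The neighbours that overlapped were smooth muscle and osteoblast at 0.5% O2 and the last 3 groups at 21% O2. The top place of smooth muscle depends on that scaling: with library size alone its libraries at 0.5% O2 were at 5.80 to 6.24 CPM, below the 8.16 to 12.0 CPM of osteoblast cultures. A predicted gene, Gm12454, overlaps Car9 on the opposite strand, and whether counting used strand is not given in the sources used here. Gm12454 had 1 to 96 counts per library, and in proliferating cells at 21% O2 it had 7 to 22 counts where Car9 had at most 4. Its mean was highest in smooth muscle (4.29 CPM) and osteoblast cultures (2.21 CPM) at 0.5% O2, and its part in the Car9 counts was not tested.

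**Figure D2:**
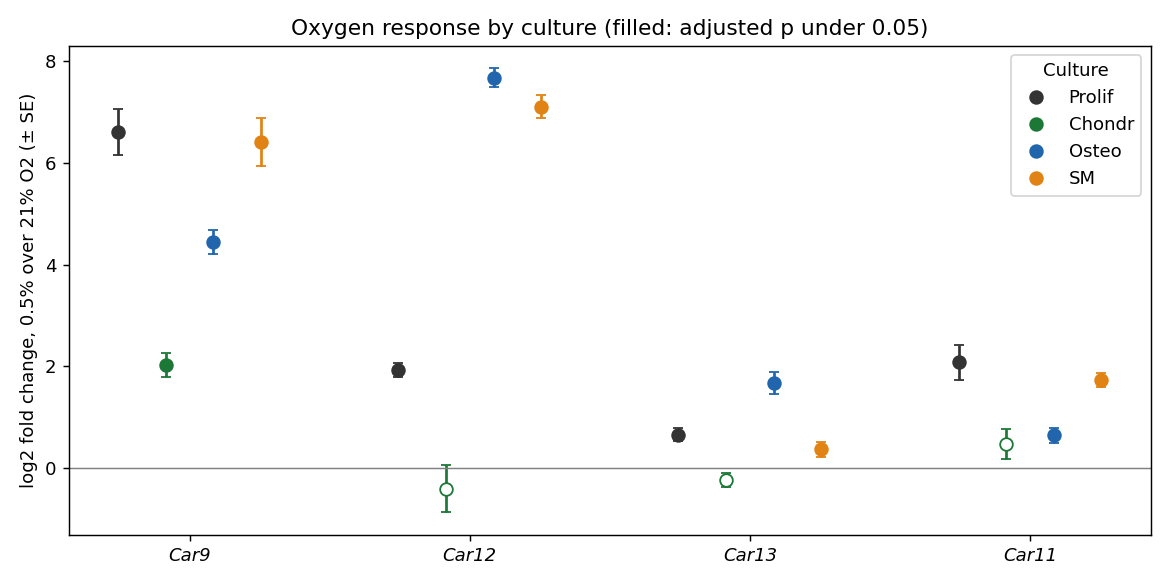
Log2 fold change of Car9, Car12, Car13 and Car11 at 0.5% over 21% O2 in proliferating, chondrocyte, osteoblast and smooth muscle cultures, with SE bars. Filled points have an edgeR adjusted p under 0.05. In chondrocyte cultures only Car9 is filled, at 2.02, while Car12 reaches 7.67 in osteoblast and 7.10 in smooth muscle cultures.

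Car12 varied widely in level, with group means from 0.188 to 128 CPM. Car12 (ENSMUSG00000032373, chromosome 9, 66713686 to 66766845, plus strand) encodes another membrane enzyme with an outward-facing catalytic domain. In osteoblast cultures it had 4, 3, 8 and 7 counts at 21% O2 and 995, 1112 and 1217 counts at 0.5% O2. These are 0.118 to 0.271 CPM against 38.5, 38.2 and 42.8 CPM, and the log2 fold change was 7.67 (SE 0.189, adjusted p = 4.22e-08, edgeR), a 203.5-fold difference. Smooth muscle libraries had 46, 33, 11 and 31 counts at 21% O2 and 1504, 1300 and 1115 counts at 0.5% O2, or 0.319 to 1.41 CPM against 113, 130 and 103 CPM. The log2 fold change was 7.10 (SE 0.228, adjusted p = 1.27e-12, edgeR), and 5.73 with library size alone.

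Proliferating cells held Car12 at both oxygen levels. The gene was at 36.9, 38.1, 40.4 and 24.6 CPM at 21% O2 and at 122, 128 and 135 CPM at 0.5% O2, a log2 fold change of 1.93 (SE 0.142, adjusted p = 5.26e-06, edgeR). Chondrocyte libraries at 21% O2 split into 68.0 and 65.2 CPM in replicates 1 and 4 and 172 and 179 CPM in replicates 2 and 3. The chondrocyte libraries at 0.5% O2, at 74.4, 89.4 and 112 CPM, lay between these, and the log2 fold change of -0.40 (SE 0.467, adjusted p = 0.61, edgeR) was not called. With this spread a change of modest size in either direction was not detectable in chondrocyte cultures.

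The Car12 response differed between cultures in all 4 pairs tested. The osteoblast response exceeded the proliferating one by 5.79 on the log2 scale (SE 0.280, adjusted p = 4.95e-10, edgeR) and the chondrocyte one by 8.06 (SE 0.671, adjusted p = 3.81e-06, edgeR). The smooth muscle response exceeded the proliferating one by 5.21 (SE 0.304, adjusted p = 2.17e-10, edgeR; 3.87 with library size alone), and the chondrocyte minus the proliferating response was -2.32 (SE 0.525, adjusted p = 0.00441, edgeR). At 21% O2 Car12 was lower than in proliferating cells in osteoblast cultures (-7.43, SE 0.252, adjusted p = 7.18e-09, edgeR) and in smooth muscle cultures (-5.27, SE 0.283, adjusted p = 3.05e-08, edgeR), and higher in chondrocyte cultures (1.86, SE 0.398, adjusted p = 0.00345, edgeR). At 0.5% O2 the differences between cultures were smaller: -1.69 in osteoblast (SE 0.0765, adjusted p = 2.33e-11, edgeR) and -0.49 in chondrocyte cultures (SE 0.139, adjusted p = 0.0142, edgeR). The chondrocyte value lost its call without chondrocyte replicate 2 (adjusted p = 0.0529) or proliferating replicate 3 (adjusted p = 0.0514) and in the fit of all 28 libraries (adjusted p = 0.187), and was -0.82 with library size alone. The smooth muscle value at 0.5% O2 was -0.03 (SE 0.0968, adjusted p = 0.773, edgeR), and with library size alone it was -1.31 and called lower (adjusted p = 1.17e-07). Chondrocyte cultures exceeded osteoblast cultures by 9.25 at 21% O2 (SE 0.578, adjusted p = 3.20e-06, edgeR) and by 1.21 at 0.5% O2 (SE 0.132, adjusted p = 7.86e-06, edgeR).

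The order of TMM-scaled Car12 means began with proliferating cells at 0.5% O2 (128 CPM ± 6.35 SD, n = 3), chondrocyte cultures at 21% O2 (121 ± 63.2, n = 4), smooth muscle (115 ± 13.4, n = 3) and chondrocyte cultures at 0.5% O2 (91.9 ± 18.9, n = 3), and each of these overlapped the next. Osteoblast cultures at 0.5% O2 (39.9 ± 2.59, n = 3) overlapped proliferating cells at 21% O2 (35.0 ± 7.06, n = 4). Smooth muscle (0.879 ± 0.445, n = 4) and osteoblast cultures at 21% O2 (0.188 ± 0.0717, n = 4) stood below all others and apart from each other. By library size alone, smooth muscle cultures at 0.5% O2 were at 53.4 to 65.4 CPM, below the 67.0 to 104 CPM of chondrocyte cultures at 0.5% O2. The 2 outward-facing enzymes therefore differed in pattern at 21% O2: the Car9 mean was lowest in proliferating cells, where it overlapped smooth muscle cultures, and the Car12 mean was lowest in osteoblast cultures.

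The other 2 outward-facing forms gave few reads. Car4, a lipid-anchored enzyme (chromosome 11, 84957786 to 84966044, plus strand), had 2 counts in a single library, osteoblast replicate 2 at 0.5% O2, and 0 in the other 27. Car14, a membrane enzyme (chromosome 3, 95897768 to 95904691, minus strand), had 0 to 18 counts per library and reads in 27 of 28. It passed the filter in 4 comparisons and was called in 0 of them; in osteoblast cultures its log2 fold change with oxygen was 0.55 (SE 0.491, adjusted p = 0.368, edgeR), with 10, 8, 11 and 6 counts at 21% O2 and 5, 15 and 18 counts at 0.5% O2. All neighbouring groups overlapped in the order of its means. Car14 overlaps Aph1a, on the opposite strand, which had 1729 to 4722 counts per library, so a small share of reads from that gene could not be told apart from Car14 if strand was not used.

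Car11 and Car8 belong to the carbonic anhydrase-related proteins, which keep the fold but are known to lack catalytic activity. Car11 (ENSMUSG00000003273, chromosome 7, 45699843 to 45704682, plus strand), known mainly from brain, rose in all 3 differentiated cultures. At 21% O2 it was at 0.457, 0.473, 0.265 and 0.245 CPM in proliferating cells and at 1.51, 2.26, 2.31 and 4.11 CPM in chondrocyte cultures. It was at 6.32, 6.07, 6.27 and 5.32 CPM in osteoblast and at 7.59, 7.28, 8.004 and 6.33 CPM in smooth muscle cultures. No library of a differentiated culture fell to the proliferating range, and the log2 fold changes were 2.83 (SE 0.368), 4.04 (SE 0.227) and 4.30 (SE 0.213), with adjusted p of 1.82e-05, 1.52e-07 and 3.07e-11 in edgeR.

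Car11 also followed oxygen in 3 cultures. In proliferating cells it was at 1.24, 1.54 and 1.81 CPM at 0.5% O2 (log2 fold change 2.08, SE 0.341, adjusted p = 0.000102, edgeR). In osteoblast cultures it was at 8.28, 8.86 and 10.9 CPM (0.64, SE 0.143, adjusted p = 0.0044, edgeR). In smooth muscle cultures it was at 22.7, 21.8 and 25.3 CPM (1.74, SE 0.142, adjusted p = 3.05e-08, edgeR), with a value of 0.37 and still called when library size alone was used (adjusted p = 0.0342). None of these groups overlapped its partner at 21% O2. In chondrocyte cultures Car11 was at 3.64, 3.27 and 3.74 CPM, inside the range at 21% O2, and the log2 fold change of 0.48 (SE 0.292, adjusted p = 0.281, edgeR) was called only without replicate 4 at 21% O2 (0.81, adjusted p = 0.0305). The response was smaller than in proliferating cells in chondrocyte (-1.58, SE 0.452, adjusted p = 0.0085, edgeR) and osteoblast cultures (-1.37, SE 0.301, adjusted p = 0.00114, edgeR).

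At 0.5% O2 Car11 kept the same order of cultures, with differences from proliferating cells of 1.21 (SE 0.238), 2.61 (SE 0.200) and 4.04 (SE 0.195) in chondrocyte, osteoblast and smooth muscle cultures, and adjusted p of 0.000525, 1.23e-08 and 7.94e-09 in edgeR. The last was 2.77 with library size alone. Over all 8 groups the TMM-scaled means ran from smooth muscle at 0.5% O2 (23.3 CPM ± 1.79 SD, n = 3) down to proliferating cells at 21% O2 (0.360 ± 0.122, n = 4), and the neighbours that overlapped were chondrocyte cultures at the 2 oxygen levels and chondrocyte cultures at 21% with proliferating cells at 0.5% O2. Chondrocyte cultures were below osteoblast cultures at 21% O2 (-1.26, SE 0.268, adjusted p = 0.00266) and at 0.5% O2 (-1.39, SE 0.174, adjusted p = 1.71e-05) in edgeR.

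Car8 (chromosome 4, 8143362 to 8239041, minus strand), known for its part in calcium release in Purkinje cells, had 35 counts in 7 libraries and passed the filter of the main fits in no comparison. Chondrocyte cultures held 32 of them: 3, 7 and 15 at 0.5% O2 and 0, 1, 5 and 1 at 21% O2. The other 3 were in proliferating replicate 1 at 21% O2. With proliferating cells at 0.5% O2 at 0, the chondrocyte level at 0.5% O2 was at least 8.44-fold higher, taking 3 counts over the group as the floor, or 5.45-fold without replicate 3, which held 15 of the 25 counts. That bound is not a test result. With no filter, where Car8 does enter this comparison, 3 of 8 tested members were called higher (23.1% of all genes), against 2 in the main fit.

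**Figure D3:**
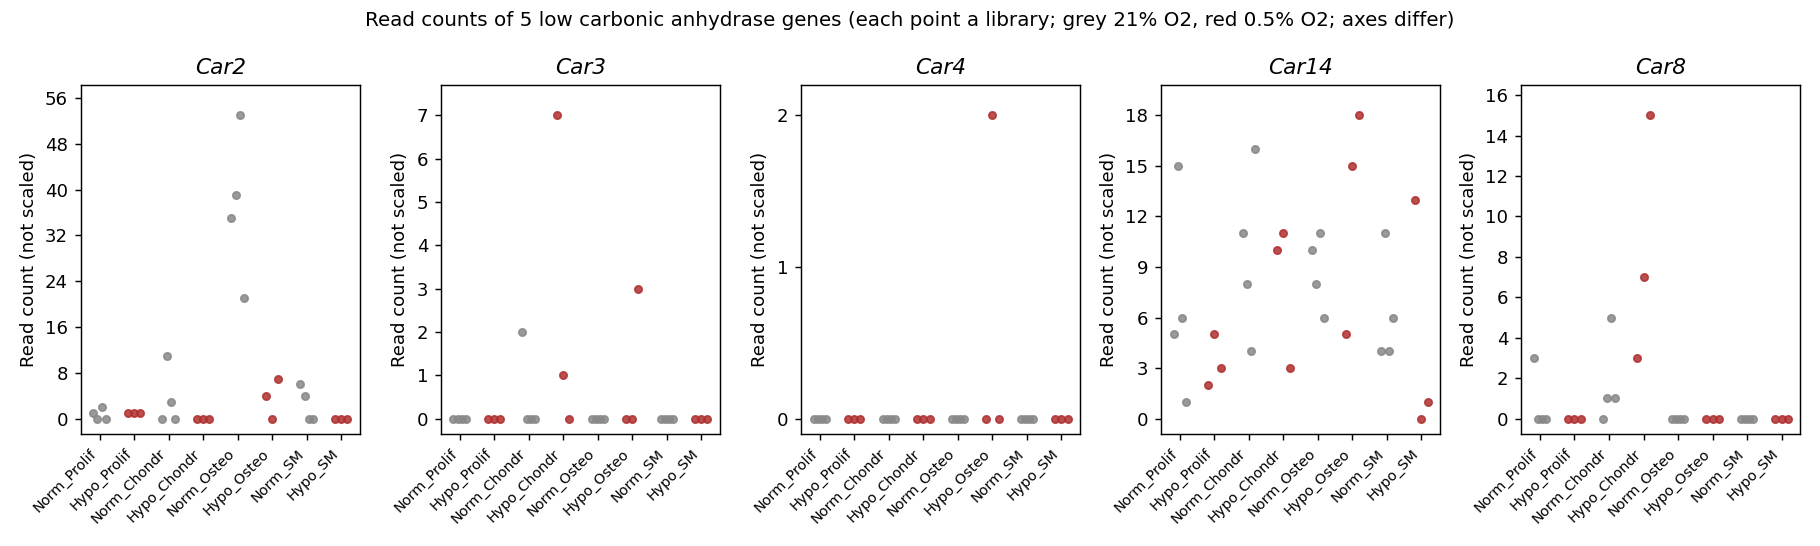
Raw read counts of Car2, Car3, Car4, Car14 and Car8 in each of the 28 libraries, with axes that differ between panels and points spread sideways only to separate them. Car2 reaches 21 to 53 counts in osteoblast cultures at 21% O2, Car8 counts lie mostly in chondrocyte cultures, and Car14 stays at 18 counts or fewer in every library.

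Between cultures most tested members were called, as were most genes. Against proliferating cells at 21% O2, 3 of 4 tested members were called in chondrocyte cultures, all higher, where 37.7% of all genes were higher and 37.2% lower. In osteoblast cultures 3 of 5 were higher and 1 lower, against 40.9% and 37.8%. In smooth muscle cultures 2 of 3 were higher and 1 lower, against 40.8% and 38.9%. At 0.5% O2 the counts were 2 higher and 2 lower of 4 in chondrocyte cultures (34.9% and 34.6% of all genes). With library size alone they were 1 and 2, Car9 not being called, where 23.4% of all genes were higher and 50.2% lower. In osteoblast cultures 3 were higher and 1 lower of 4 (36.2% and 35.1%), and in smooth muscle cultures 2 were higher and 0 lower of 4 (33.8% and 36.2%). That last count became 1 higher and 2 lower with library size alone, where Car9 was not called and Car12 and Car13 were called lower. Under that scaling 12.4% of all genes were higher and 70.6% lower in the smooth muscle comparison. Between chondrocyte and osteoblast cultures 2 members were higher and 2 lower of 5 at 21% O2 (28.6% and 31.1%), and 1 was higher and 3 lower of 5 at 0.5% O2 (28.6% and 29.0%). These comparisons share groups, so their counts are not independent of one another. Oxygen responses that differed between cultures were called for 4 of 4 members in chondrocyte against proliferating (43.5% of all genes), 4 of 6 in osteoblast against proliferating (54.2%), 1 of 4 in smooth muscle against proliferating (70.4%; 3 of 4 with library size alone, where Car11 was -1.61 and Car13 -1.58 and 77.6% of all genes were called) and 3 of 6 in osteoblast against chondrocyte cultures (37.8%). For Car13 the response was smaller in chondrocyte than in proliferating cultures (-0.88, SE 0.196, adjusted p = 0.0014, edgeR) and larger in osteoblast cultures (1.05, SE 0.274, adjusted p = 0.00415, edgeR).

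Of the 7 carbonic anhydrase genes outside these 9 in the table, Car5b and Car6 had the most reads. Car5b, a mitochondrial enzyme on the X chromosome, was at 53.4, 52.4 and 53.2 CPM in osteoblast cultures at 0.5% O2 and at 17.2, 16.7, 16.5 and 21.5 CPM at 21% O2 (log2 fold change 1.56, SE 0.109, adjusted p = 5.18e-06, edgeR). It rose with low oxygen in proliferating cells too (0.86, SE 0.106, adjusted p = 7.13e-06, edgeR), was not called in chondrocyte cultures (-0.51, SE 0.280, adjusted p = 0.247, but 0.0412 in the fit of all 28 libraries), and in smooth muscle cultures was 0.71 (SE 0.159, adjusted p = 0.000933, edgeR) but -0.66 with library size alone. Car6, the secreted enzyme known from saliva, was at 21.6, 14.8 and 16.9 CPM in chondrocyte cultures at 0.5% O2 and at 5.25, 6.79, 5.44 and 11.9 CPM at 21% O2 (1.27, SE 0.284, adjusted p = 0.0136, edgeR). That Car6 call was lost when no filter was applied (adjusted p = 0.0633). Leaving out 1 library at a time gave an oxygen response of Car6 of 3.19 to 3.84 in proliferating cells and 2.71 to 3.97 in osteoblast cultures, called higher each time. Both rest on few counts at 21% O2, with 0 to 5 per library in osteoblast cultures. In proliferating cells at 21% O2 Car6 had 1 to 14 counts per library, and the chondrocyte cultures were higher by 5.85 (SE 0.406, adjusted p = 8.04e-08, edgeR). The rest were low. Car15 was called in 1 comparison by edgeR with all libraries of its groups, higher in chondrocyte than in proliferating cells at 0.5% O2 (2.33, SE 0.620, adjusted p = 0.00446, edgeR, and 3.16 without proliferating replicate 3). In osteoblast against proliferating cells at 21% O2 it was called with limma-voom (1.29, adjusted p = 0.0404) and without proliferating replicate 3 (1.70, adjusted p = 0.00538). Car7 was called in 0 comparisons with all libraries. Without osteoblast replicate 2 at 0.5% O2 it was called lower for oxygen in osteoblast cultures (-2.1, adjusted p = 0.0496, edgeR). Car5a had 17 counts and Car10 19 over 28 libraries, and Car1 had 0.

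Compared per length of exon, the leading carbonic anhydrase changed with the culture. Car12 had the largest share of summed CPM per kb of these 16 genes in proliferating cells at 21% O2 (43.7% ± 7.71 SD, n = 4) and at 0.5% O2 (58.2% ± 1.67, n = 3), in chondrocyte cultures at 21% O2 (50.3% ± 15.2, n = 4) and at 0.5% O2 (36.4% ± 6.92, n = 3), and in smooth muscle cultures at 0.5% O2 (37.2% ± 3.50, n = 3). Car13 led in osteoblast cultures at 21% O2 (31.8% ± 7.29, n = 4) and at 0.5% O2 (31.4% ± 1.17, n = 3) and in smooth muscle cultures at 21% O2 (46.4% ± 3.16, n = 4). The ranges of the first and the next gene overlapped in osteoblast cultures at 21% O2, where Car11 had 29.7% and Car5b 26.6%, in proliferating cells at 21% O2, where Car13 had 35.2%, and in chondrocyte cultures at 0.5% O2, where Car6 had 29.3%. The summed level was 9.89 to 12.1 CPM per kb in proliferating, osteoblast and smooth muscle libraries at 21% O2, and 26.9 to 41.9 CPM per kb in all libraries at 0.5% O2. With library size alone the smooth muscle libraries at 0.5% O2 were at 20.8 to 21.3 CPM per kb, still above the 10.8 to 13.6 CPM per kb of those 3 groups at 21% O2. Chondrocyte libraries at 21% O2, at 19.6 to 37.5 CPM per kb, reached into the range seen at low oxygen.

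**Figure D4:**
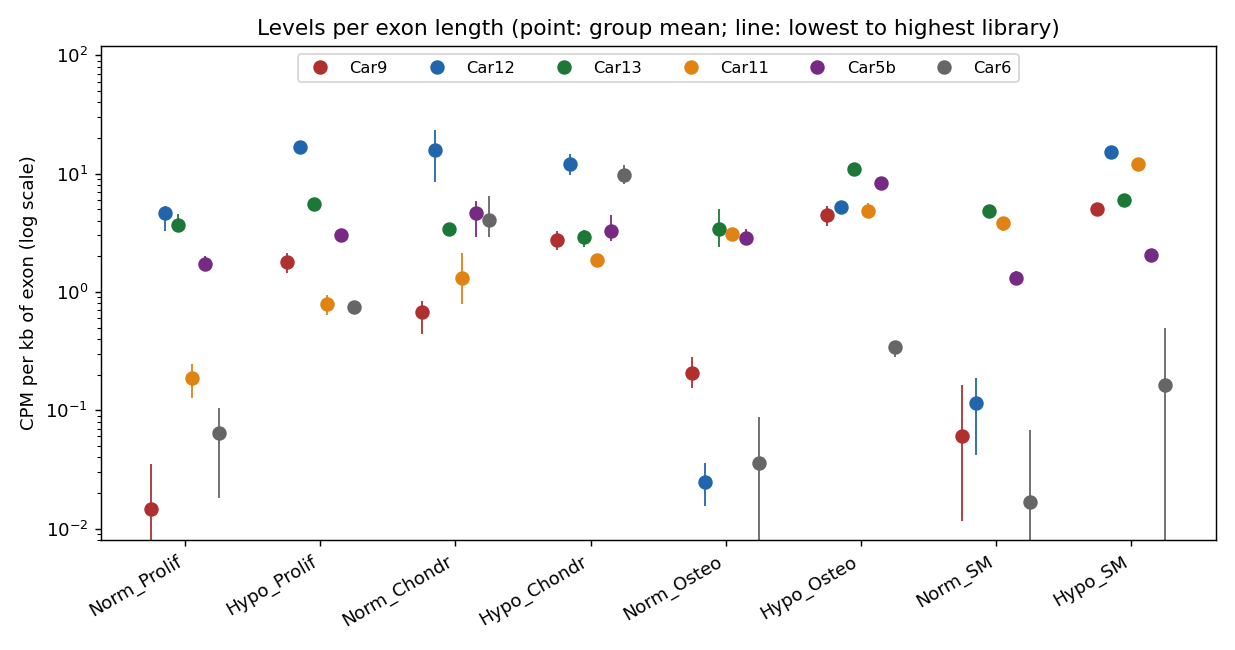
Mean TMM-scaled CPM per kb of exon of Car9, Car12, Car13, Car11, Car5b and Car6 in the 8 groups, on a log axis, with lines from the lowest to the highest library; a line that runs off the lower edge includes a library at 0. Car12 leads in 5 groups and drops below 0.2 in osteoblast and smooth muscle cultures at 21% O2.

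Known hypoxia-inducible genes set the scale for the Car9 and Car12 responses. Of 20 such genes other than carbonic anhydrases, 19 were called higher at 0.5% O2 in proliferating cells (median log2 fold change 2.78), 17 in chondrocyte (1.24), 19 in osteoblast (3.22) and 19 in smooth muscle cultures (3.67), beside the percentages over all genes given above. The list was drawn up with earlier results of these data known and is a description. In proliferating cells its largest changes were those of Aldoc, a glycolytic enzyme (5.78), Adm, a peptide hormone (5.11), and Ankrd37 (5.06), below the 6.61 of Car9 and above the 1.93 of Car12. In osteoblast cultures they were Ankrd37 (4.87), Pfkfb3, a regulator of glycolysis (4.64), and Adm (4.58), below the 7.67 of Car12 and above the 4.44 of Car9. In chondrocyte cultures they were Ankrd37 (2.37), Ero1l, an oxidase of the endoplasmic reticulum (1.84), and Ndrg1 (1.76), of which the first exceeded the 2.02 of Car9. Those of smooth muscle cultures were Pgk1, a glycolytic enzyme (7.47), Higd1a, a mitochondrial protein (5.73), and Ankrd37 (5.70), of which the first exceeded the 7.10 of Car12 and the 6.41 of Car9. Pfkfb4, named because it was the 1 gene called lower there, had -1.14. At 21% O2, 15 of the 20 were called higher and 0 lower in chondrocyte against proliferating cultures (median 1.53), where 37.7% of all genes were higher and Car9 and Car12 were too. In osteoblast cultures, where Car9 was also higher, 6 were higher and 9 lower (median 0.01), against 40.9% and 37.8% of all genes. In smooth muscle cultures 7 were higher and 11 lower (median -0.26), against 40.8% and 38.9%. For 0.5% against 21% O2 in smooth muscle cultures, the count with library size alone was 18 higher and 1 lower, and the median 2.30. Under that scaling 13.4% of all genes were higher and 72.6% lower.

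Carriers that move lactate, protons and bicarbonate with these enzymes showed no single direction. Among lactate and proton carriers, Slc16a3, the lactate exporter of glycolytic cells, was higher at 0.5% O2 in proliferating (7.43), chondrocyte (2.33) and osteoblast cultures (4.69), and was too low for a test in smooth muscle cultures. Bsg, the partner that brings such carriers to the membrane, was higher in all 4 (2.56, 1.24, 1.47 and 3.27, and 1.90 in the last with library size alone). Slc16a7, another monocarboxylate carrier, was lower in chondrocyte (-0.75), osteoblast (-1.11) and smooth muscle cultures (-4.89), and Emb, like Bsg a partner of such carriers, was lower in smooth muscle cultures (-2.46). Over the list, to be read against the percentages over all genes given for the same 4 oxygen comparisons, 2 of 5 were higher and 1 lower in proliferating, 2 and 1 of 5 in chondrocyte, 3 and 1 of 5 in osteoblast, and 2 and 2 of 4 in smooth muscle cultures. Of the tested genes listed as bicarbonate transporters, 0 were higher and 1 lower of 6 in proliferating cells, 1 and 1 of 7 in chondrocyte, 0 and 4 of 7 in osteoblast, and 1 and 2 of 7 in smooth muscle cultures. Whether each listed gene, Slc4a11 among them, carries bicarbonate was not examined. The 4 lower calls in osteoblast cultures were 2 with RLE factors, where Slc4a2 and Slc4a7 lost theirs, and 5 with library size alone. Slc4a11 gave the largest of these changes, -3.68 in osteoblast and -2.43 in smooth muscle cultures, and Slc4a8 was the gene called higher in chondrocyte cultures (1.81). Of the sodium-proton exchangers, 4 were higher and 1 lower of 5 in proliferating cells, 0 and 1 of 6 in chondrocyte, 1 and 2 of 6 in osteoblast (1 and 4 with library size alone), and 2 and 4 of 6 in smooth muscle cultures. Slc9a9, an endosomal exchanger, was lower in chondrocyte (-1.42), osteoblast (-2.83) and smooth muscle cultures (-3.32), and Slc9a5 was higher in osteoblast (1.22) and smooth muscle cultures (1.37, but not called with library size alone). With library size alone, an alternative added after these values were seen, the smooth muscle counts became 1 and 3 of 4 lactate carriers, 0 and 6 of 7 bicarbonate transporters and 0 and 4 of 6 exchangers, where 13.4% of all genes were higher and 72.6% lower.

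Across the 8 group means of log2(CPM + 0.5), the genes whose pattern was most like that of each abundant member were found among 11667 genes. For Car9 they were Pygl, glycogen phosphorylase (Pearson r = 0.975), Higd1a (0.975), and Alkbh5, an RNA demethylase (0.969). For Car12 they were Ankrd1 (0.978), Ets1, a transcription factor (0.961), and Baalc (0.959). For Car13 they were Cnksr1 (0.957), Gata6 (0.946) and Klf5 (0.942), the last 2 transcription factors, and for Car11 Zfp931 (0.978), Acaa1a, a peroxisomal enzyme (0.973), and Tgfb1i1 (0.971). Between members r was 0.65 for Car9 with Car12, 0.52 for Car9 with Car11, 0.52 for Car9 with Car13, 0.45 for Car11 with Car13, 0.16 for Car12 with Car13 and -0.18 for Car11 with Car12. The points are 8 group means that share libraries and scaling, and the coefficients describe likeness in these groups only.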

How the data were processed

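RNA sequencing of 28 O9-1 libraries was analysed from a table of read counts per gene, whole numbers deposited by the authors without normalization. Per the submitters' processing notes the build was mm10 and the tools included HISAT2 2.0.5, StringTie 1.3.3b and featureCounts 1.5.0-p3; their settings and roles, the gene annotation and whether reads were counted by strand are not given in the sources used here. The authors' deposited tables of log2 fold changes and p-values, read per the file headers, served as a check only: 64 of 64 values compared for carbonic anhydrase genes had the same sign as the values computed here. A further 70 columns of per-library values in those tables were not used. Of 54429 identifiers, 54314 matched the reference table of gene names.

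Each comparison was fitted on the libraries of its groups with edgeR 4.0.16 (R 4.3.3): TMM scaling, filterByExpr with at least 10 counts and 15 in total, robust quasi-likelihood fit, two-sided F test, and Benjamini-Hochberg adjustment over all genes kept, called under 0.05. There were 12 comparisons of groups and 4 of oxygen responses. The SE is the log2 fold change divided by the square root of F. CPM values use TMM factors over all 28 libraries. Fits were tested on simulated counts. Alternatives were limma-voom (limma 3.58.1), DESeq2 1.42.0, other scalings and filters, all 28 libraries, the replicate block, and leaving out each library. Same-numbered libraries deviated with r of -0.26 to 0.107 and in 0 of 12 comparisons all together, so the numbers were not treated as pairs. Library totals of 19869271 to 64693346 counts limit the precision of genes with few reads, and intervals are not given because reads without molecular identifiers are not independent molecules.

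The genes and gene lists were chosen with earlier results of these data known. All 9 members and the 7 other carbonic anhydrase genes are named. From each further list the genes called are counted, and at most the 3 with the largest change among called genes with a mean of at least 1 CPM in a compared group are named. For members with a mean of at least 1 CPM the 3 genes most like them over the group means are named, predicted genes left out.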

Additional observations from a re-analysis of the deposited data

Results flagged for a closer look

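In groups of 4 libraries, a library was marked when its gap to the nearest other exceeded Dixon's 95% critical value. Chance marks about 1 in 20 groups, and 11 of 48 groups were marked, several of them because a gene had counts in 1 library alone. Proliferating replicate 4 at 21% O2 stood high for Car13 (10.4 CPM) and Car5b (12.7 CPM), and for Car10 it was the only library of its group with a count (0.035 CPM). Osteoblast replicate 4 at 21% O2 stood high for Car5b (21.5 CPM). The others lay near the detection limit. Single libraries at 21% O2 held all counts of Car3 in chondrocyte cultures (0.0617 CPM), of Car8 in proliferating cells (0.0807 CPM), of Car6 in smooth muscle cultures (0.122 CPM), and of Car5a in smooth muscle (0.0583 CPM), chondrocyte (0.0309 CPM) and osteoblast cultures (0.136 CPM). For Car15 smooth muscle replicate 3 was the only library of its group at 0 CPM.

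The oxygen response differed between cultures, by the edgeR test of the difference itself, in 16 cases given here on the log2 scale. For chondrocyte minus proliferating the differences were -4.56 for Car9, -1.58 for Car11, -2.32 for Car12, -0.88 for Car13, -1.36 for Car5b and -2.10 for Car6. For osteoblast minus proliferating they were -2.11 for Car9, -1.37 for Car11, 5.79 for Car12, 1.05 for Car13 and 0.74 for Car5b. For smooth muscle minus proliferating the difference was 5.21 for Car12 and 3.87 with library size alone, a scaling under which Car11 (-1.61), Car13 (-1.58) and Car5b (-1.45) were also called. For osteoblast minus chondrocyte they were 2.41 for Car9, 8.06 for Car12, 1.90 for Car13 and 2.06 for Car5b.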

How the results depend on the processing

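With at least 10 counts required in every library, genes near 0 in a group leave the test, and the members called fell to 2 of 2 still tested for oxygen in proliferating cells (68.6% of all genes called), 3 of 3 for oxygen in osteoblast cultures (55.7%), 1 of 2 for chondrocyte (76.4%) and 0 of 1 for osteoblast (79.7%) against proliferating cells at 21% O2, 2 of 3 for chondrocyte against osteoblast at 21% O2 (60.9%), and 2 of 2 (52.3%) and 1 of 1 (63%) for the chondrocyte and osteoblast responses minus the proliferating one. In 1 fit of all 28 libraries 2 of 6 tested members were called for chondrocyte against proliferating cells at 0.5% O2 (59.5% of all genes called). That fit called 3 higher and 1 lower of 6 for smooth muscle against proliferating cells at 21% O2 (35.1% and 35.4% of all genes). For osteoblast against proliferating cells at 0.5% O2 it called 4 higher and 1 lower of 6 (31.5% and 30.5%). With library size alone, 3 of 4 were called for the smooth muscle minus the proliferating response (77.6%). That scaling moved the median of all genes to -1.49, -1.35 and -1.37 in the comparisons that involve smooth muscle cultures at 0.5% O2, where calls are relative to it. The share of called genes that were higher went from 46.8 to 15.6% for oxygen in smooth muscle, 48.3 to 15.0% for smooth muscle against proliferating cells at 0.5% O2, and 49.6 to 16.6% for the smooth muscle minus the proliferating response. It went from 46.9 to 31.8% and 49.6 to 36.9% for oxygen in chondrocyte and osteoblast cultures, 50.3 to 34.7% and 50.2 to 31.8% for chondrocyte against proliferating cells at 21% and 0.5% O2, 50.8 to 38.2% for osteoblast against proliferating cells at 0.5% O2, and 48.0 to 34.3% for chondrocyte against osteoblast at 21% O2.

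Signs turned as follows, the cause not tested. With library size alone, the oxygen response in smooth muscle was -0.9995 for Car13 and -0.66 for Car5b, both called higher with TMM. Values that were not called also turned: with that scaling Car13 in smooth muscle against proliferating cells at 0.5% O2 was -1.06 and then called lower (adjusted p = 7.46e-05), and Car5b in chondrocyte against proliferating cells at 0.5% O2 was -0.22. Car12 in smooth muscle against proliferating cells at 0.5% O2 was 0.0195 with RLE factors and 0.0195 with DESeq2. With limma-voom, Car13 in chondrocyte against osteoblast at 21% O2 was 0.0027, the osteoblast minus proliferating response of Car6 0.12, the smooth muscle minus proliferating response of Car9 0.25, and the osteoblast minus chondrocyte response of Car2 -1.97. With the replicate block Car13 in chondrocyte against osteoblast at 21% O2 was 0.0124. The replicate block also took members called for oxygen in smooth muscle from 4 to 3 (69.1% of all genes called) and for the osteoblast minus proliferating response from 4 to 5 (55%). That added call is Car2 (-4.17), also called with limma-voom (-4.94), with DESeq2 (-4.18) and without each of 3 single libraries.

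Leaving out 1 library at a time, members called for oxygen in chondrocyte cultures ran from 1 to 2 and for chondrocyte against proliferating cells at 0.5% O2 from 2 to 4, and genes called for oxygen in chondrocyte cultures from 2091 to 3359. Log2 fold changes that were not called and crossed 0 ran from -0.0708 to 0.83 for Car15 (oxygen, osteoblast), -0.099 to 0.0667 for Car13 (chondrocyte against proliferating, 21% O2), -0.34 to 0.0754 for Car13 (osteoblast against proliferating, 21% O2, called lower without osteoblast replicate 4), -0.17 to 0.23 for Car5b (chondrocyte against proliferating, 0.5% O2), -0.14 to 0.0297 for Car12 (smooth muscle against proliferating, 0.5% O2), -0.18 to 0.22 for Car13 and -0.17 to 0.82 for Car15 (chondrocyte against osteoblast, 21% and 0.5% O2). Response differences ran from -0.70 to 0.61 for Car6 (osteoblast minus proliferating), -0.54 to 1.08 for Car9 and -6.54 to 2.77 for Car6 (smooth muscle minus proliferating), and -0.10 to 2.26 for Car2 and -0.17 to 0.35 for Car11 (osteoblast minus chondrocyte). Few reads limit Car3, Car4, Car8 and Car14 throughout and Car2 and Car9 in the groups where they are lowest.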
